A study of Mus musculus with 12 samples.

Results

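Satellite cells are the muscle stem cells that lie between a muscle fibre and its basal lamina. This account compares 4 arrays of activated satellite cells that were labelled with 2 different kits, and takes off the kit difference seen in 4 arrays of quiescent satellite cells. Arrays were chosen by group and labelling kit alone. They were activated 1 and activated 2 against activated 3 and activated 4, and quiescent 1 and quiescent 2 against quiescent 3 and quiescent 4, so 8 of the 12 arrays of the series entered the comparison. In each pair of groups the first 2 arrays had been prepared with Affymetrix's small-sample labelling assay and the last 2 with its two-cycle kit.

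All cells came from hind limb muscle of C57BL/6J mice aged 8 to 12 weeks, and were sorted with the SM/C-2.6 antibody. Quiescent cells were SM/C-2.6 positive and were lysed straight after sorting; over 97% of them were Pax7 positive per the labels. Activated cells had the same sort and then 4 days of culture in DMEM with 20% fetal calf serum and 2.5 ng/ml bFGF; over 99% were MyoD positive per the labels. Nonmyogenic cells, which were negative for SM/C-2.6 and for CD45 and held under 1% myogenic cells, gave 1 small-sample and 3 two-cycle arrays, which served in the fit of the spread and as a further kit difference. No group carried a genetic change. The labels do not say whether arrays of a group came from separate mice, sorts or cultures, so each p-value rests on the spread among these arrays alone, and that spread may be technical. Among the activated arrays the kit and the culture cannot be told apart, and the difference in quiescent arrays shows what the kits and the separate sorts did together in cells that were never cultured.

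Myoblasts in culture divide while growth factors are plentiful. When they leave the cell cycle they switch on myogenin (Myog), then the contractile genes of embryonic muscle, and fuse into multinucleated myotubes. Embryonic myosin heavy chain (Myh3), the atrial and embryonic light chain (Myl4) and skeletal alpha-actin (Acta1) mark that step. The sarcomere that follows is built from thick filaments of myosin, thin filaments of actin, troponin and tropomyosin, and Z-discs that anchor the thin filaments.

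The values were MAS5 signals of probe sets, each array scaled to a common trimmed mean of 235.14 and turned to log2 after adding 14.70. A log2 difference of 1 is a doubling on that scale, and values near the log2 of the pseudocount are close to no signal. As deposited, trimmed means ran from 457 to 502 in the activated small-sample arrays, 178 to 215 in the activated two-cycle arrays, 323 to 377 in the quiescent small-sample arrays and 160 to 190 in the quiescent two-cycle arrays. The ratio of 3′ to 5′ signal of the control gene Gapdh was 1.40 on both activated small-sample arrays and 2.07 to 2.14 on the activated two-cycle arrays, against 3.06 to 5.36 over the quiescent arrays. Pearson correlations of log2 signal over 12728 probe sets were 0.972 between activated 1 and activated 2, 0.987 between activated 3 and activated 4, and 0.937 to 0.943 across the kits. In the same order, 343, 125 and 1419 to 1577 probe sets lay at least 2-fold apart. Across the kits the quiescent arrays correlated at 0.893 to 0.936, with 1032 to 2332 probe sets at least 2-fold apart.

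Muscle structure genes carried the largest differences. The name stands for 6 lists: embryonic and fetal muscle, adult fibre, thick filament, thin filament, Z-disc, and calcium release genes. They also hold genes of metabolism and signalling. Of 82 tested genes on these lists, 37 were higher in the small-sample activated arrays by more than the quiescent kit difference and none was lower. Mb, Ckm, Pgam2 and Igf2, which are not structural, were among the 37. The median of the 82 was 1.67 log2 units against 0.08 over all 7676 genes tested. The test was limma's moderated test of the difference in differences, which is the activated kit difference (small-sample minus two-cycle) less the quiescent one, with p-values adjusted over 12728 probe sets (Benjamini-Hochberg) and a threshold of 0.05. It called 565 probe sets, 4.44% of those tested, with 429 higher and 136 lower. By gene, 308 (4.01%) were higher and 92 (1.2%) lower, so the 45.1% of muscle structure genes called higher stand against a background of 4.01%. The shares of 4.01% higher and 1.2% lower are the background for each list count below. The 6 lists of genes were drawn up with earlier results of these data known, so this share is a description. Genes entered the test by their mean signal over the 8 arrays, so some entered through activated 1 and 2 alone. Myom2, Mybph, Xirp1, Smpx and Hspb3, all among the 37, did so. Dclk1 and Itgb1bp2, described below, did so too.

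The replicate number as a block, which pairs activated and quiescent arrays of the same number, left 28 probe sets called, 26 higher and 2 lower, and 12 of the 82 muscle structure genes. Of the 76 genes named below that were called, 16 kept the call with the block: Acta1, Actn2, Atp2a1, Casq2, Dclk1, Donson, Mb, Mef2c, Mybph, Myh1, Myh3, Myl1, Myl4, Mymk, Myom2 and Tnni1. All 76 kept their direction.

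Before the quiescent difference was taken off, the activated arrays of the 2 kits differed at 2721 probe sets (21.4%), 1820 higher and 901 lower with the small-sample kit. By gene these were 1081 higher (14.1%) and 517 lower (6.74%). The quiescent arrays differed at 2979 probe sets (23.4%), with 906 genes higher (11.8%) and 854 lower (11.1%). Shares of higher calls depended on the scaling. With median centring the activated calls were 761 higher and 2387 lower, with cyclic loess 1036 and 1099, with quantile normalization 672 and 546, and without scaling 11307 and 7. Quiescent calls with median centring were 908 higher and 2471 lower, and without scaling 8888 and 31. For the difference in differences the split was 237 to 157 with median centring, 273 to 174 with cyclic loess and 526 to 43 without scaling. Under those same settings and quantile normalization 33 to 41 of the 82 muscle structure genes were called higher and none lower.

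Over the 12728 probe sets the kit difference of the activated arrays correlated with that of the quiescent arrays at r = 0.392 and with that of the nonmyogenic arrays at r = 0.541, and the quiescent and nonmyogenic differences correlated at r = 0.618. These correlations share no arrays but share the kits and the signal level of each probe set. In the plot of the kit differences 74 of the 82 muscle structure genes lie above the line of equal differences. Probe sets as a whole follow that line only loosely (r = 0.392). The lowest point of the plot on the activated axis is a probe set to which the annotation gives no single gene. Its log2 signals were 5.80 and 6.47 in the small-sample and 9.96 and 9.90 in the two-cycle activated arrays.

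**Figure D1:**
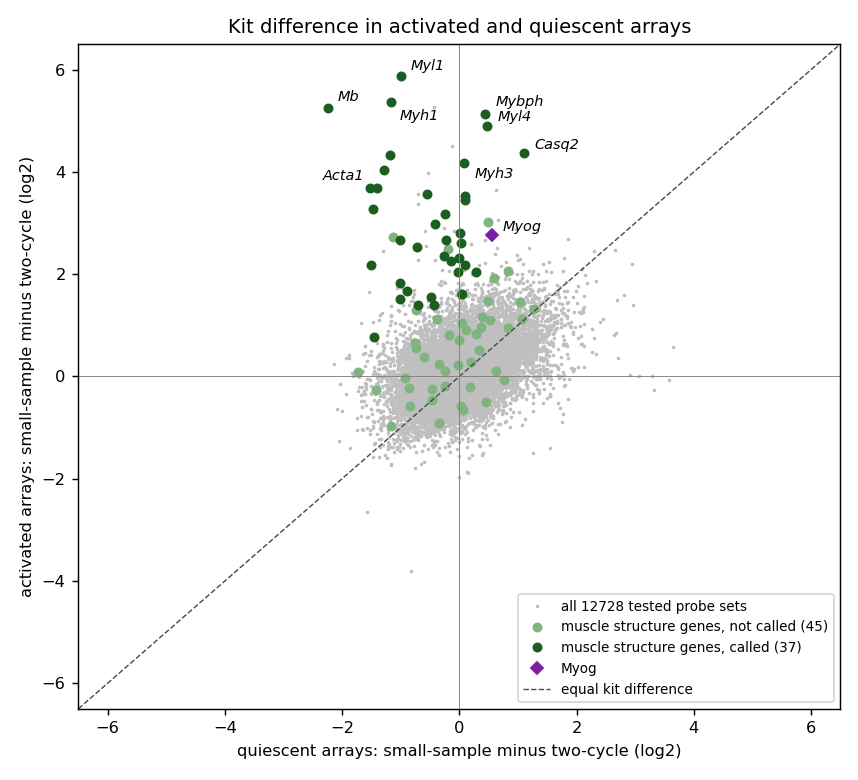
Kit difference (small-sample minus two-cycle, log2) of the activated arrays against that of the quiescent arrays, 1 grey point for each of 12728 tested probe sets, with the 82 muscle structure genes in green (dark where called in the difference in differences) and Myog as a diamond. The 37 called genes lie above the dashed line of equal differences, with Mb, Myl1 and Myh1 above 5 on the vertical axis and below 0 on the horizontal one.

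The 4 marker genes of differentiating muscle cells were all higher in the small-sample activated arrays. Myh3, the myosin heavy chain of embryonic muscle, had scaled signals of 2798 and 2289 in activated 1 and 2, and of 135 and 119 in activated 3 and 4. The quiescent arrays had 14.7, 2.7, 3.5 and 10.5, and the nonmyogenic arrays 1.3 to 10.7. Both activated small-sample arrays thus lay far above the two-cycle ones, which in turn lay above every uncultured array. In bulk cultures, more differentiated cells and more RNA per differentiated cell cannot be told apart. The activated kit difference was 4.17 log2 units (18.0-fold, adjusted p = 3.95e-05), the quiescent one 0.08, and the difference in differences 4.09 ± 0.41 (SE, adjusted p = 0.000659).

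Myl4 had scaled signals of 1831 and 2118 in activated 1 and 2, and of 41.4 and 64.6 in activated 3 and 4. In the quiescent arrays it had 91.9, 107.5, 74.6 and 61.6. The two-cycle activated arrays were therefore at or under the level of the uncultured cells, and the small-sample ones well above. The activated kit difference was 4.89 (29.7-fold), the quiescent one 0.47 and the difference in differences 4.43 ± 0.33 (adjusted p = 0.000302).

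Acta1 had scaled signals of 4702 and 3670 in activated 1 and 2, and of 288.9 and 330.5 in activated 3 and 4. Uncultured cells also had signal, at 1080 and 699 in quiescent 1 and 2, 2098 and 2583 in quiescent 3 and 4, and 2568 to 9382 in the nonmyogenic arrays. The quiescent kit difference ran the other way, at -1.41 (adjusted p = 0.00806), so subtraction raised the activated difference of 3.69 to 5.09 ± 0.41 (adjusted p = 0.000302).

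Myog, the transcription factor that starts terminal differentiation, had scaled signals of 4532 and 1775 in activated 1 and 2, and of 443.5 and 368.9 in activated 3 and 4. The quiescent arrays had 610.8, 477.5, 302.3 and 435.4. The two-cycle activated arrays lay within the range of the quiescent ones, and activated 1 and 2 differed from each other more than activated 3 and 4 did. The activated kit difference was 2.77 (6.80-fold, adjusted p = 0.0015) and the difference in differences 2.21 ± 0.54 (adjusted p = 0.0452). The call was kept under 9 of 27 alternatives, with values from 1.54 to 2.88. It was lost with median centring, quantile normalization and cyclic loess among others, and with the replicate block (adjusted p = 0.0559).

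**Figure D2:**
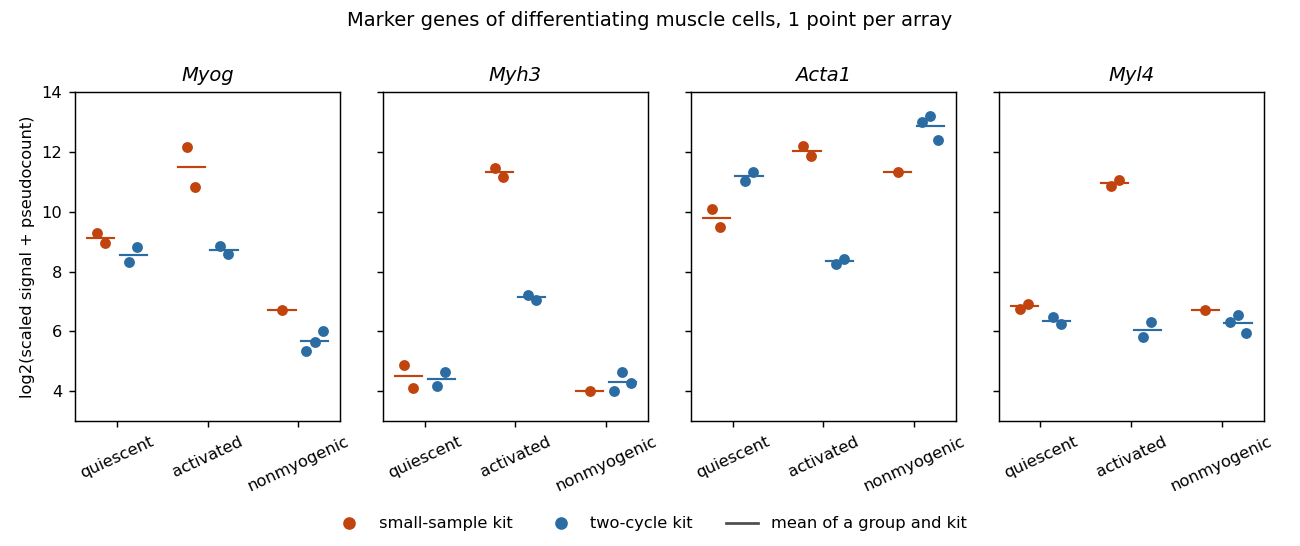
Log2 of the scaled signal plus pseudocount of Myog, Myh3, Acta1 and Myl4 by group, 1 point per array, coloured by labelling kit, with a bar at the mean of each group and kit. In the activated group both small-sample points lie above both two-cycle points for all 4 genes, with Myh3 at 11.46 and 11.17 against 7.23 and 7.06; only for Acta1 do the quiescent arrays show the reverse order.

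Promoters of the 4 marker genes and of 2 thick filament genes are shown because MyoD and myogenin bind E-boxes, the 6-base sites CANNTG. RefSeq's windows (GRCm38.p6) were read for the 250 bases before the start of the gene, with E-boxes in capitals, on the gene's strand. Those of Myh3 lie at chr11:67078050-67078299 on the plus strand, of Myl4 at chr11:104550413-104550662 on the plus strand, of Myog at chr1:134289754-134290003 on the plus strand, of Acta1 at chr8:123894776-123895025 on the minus strand, of Mybph at chr1:134193198-134193447 on the plus strand and of Mylpf at chr7:127211358-127211607 on the plus strand. Mybph and Mylpf are a myosin binding protein and a fast light chain described below.
Myh3: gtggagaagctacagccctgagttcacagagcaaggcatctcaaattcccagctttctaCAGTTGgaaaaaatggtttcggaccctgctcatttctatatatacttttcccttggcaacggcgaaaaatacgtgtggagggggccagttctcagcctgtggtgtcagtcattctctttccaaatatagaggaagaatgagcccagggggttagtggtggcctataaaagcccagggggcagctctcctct
Myl4: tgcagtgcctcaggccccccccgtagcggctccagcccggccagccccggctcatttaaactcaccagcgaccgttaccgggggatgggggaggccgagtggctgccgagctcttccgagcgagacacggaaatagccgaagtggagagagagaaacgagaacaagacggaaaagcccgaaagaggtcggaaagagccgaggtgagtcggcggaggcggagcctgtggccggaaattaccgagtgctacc
Myog: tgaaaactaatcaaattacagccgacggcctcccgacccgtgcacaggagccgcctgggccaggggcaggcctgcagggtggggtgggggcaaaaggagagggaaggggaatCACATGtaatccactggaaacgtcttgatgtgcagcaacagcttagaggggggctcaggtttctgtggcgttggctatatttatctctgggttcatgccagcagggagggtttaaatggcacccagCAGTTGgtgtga
Acta1: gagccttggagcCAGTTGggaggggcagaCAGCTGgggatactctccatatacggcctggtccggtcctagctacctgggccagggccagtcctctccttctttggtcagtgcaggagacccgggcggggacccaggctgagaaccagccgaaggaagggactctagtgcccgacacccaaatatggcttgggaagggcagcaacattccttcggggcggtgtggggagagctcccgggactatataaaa
Mybph: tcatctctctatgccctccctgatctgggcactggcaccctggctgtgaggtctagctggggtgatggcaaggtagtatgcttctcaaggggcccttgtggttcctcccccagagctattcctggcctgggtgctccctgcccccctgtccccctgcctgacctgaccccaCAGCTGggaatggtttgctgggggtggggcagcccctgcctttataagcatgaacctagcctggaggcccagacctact
Mylpf: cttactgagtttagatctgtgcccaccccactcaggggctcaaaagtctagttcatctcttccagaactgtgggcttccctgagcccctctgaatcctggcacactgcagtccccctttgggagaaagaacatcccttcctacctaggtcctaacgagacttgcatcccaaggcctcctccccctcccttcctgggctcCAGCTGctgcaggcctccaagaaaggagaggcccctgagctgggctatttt
The windows of Acta1, Mybph and Mylpf hold the E-box CAGCTG, that of Myog holds 2 other E-boxes, that of Myh3 holds 1 other and that of Myl4 none. The window of Chrna1, which was not called, holds 2 CAGCTG. Of 62 muscle structure genes with a window, 40.3% held CAGCTG on either strand, against 10.8% of 6280 genes tested on the array and 12.8% of all 27025 genes with a window. Among the 31 of them called higher the share was 38.7%. Any E-box, a class that includes CAGCTG, was in 79.0%, 55.2% and 66.0% of them. The MEF2 motif was in 14.5%, 1.46% and 3.01%, and the CArG box in 11.3%, 1.29% and 1.4%. A match describes these letters in these windows, and binding was not measured.

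Thick filament and M-band genes differed most of the lists. Of 14 tested, 10 were called higher and none lower, with a median difference in differences of 3.76 and medians of 3.40 in the activated and -0.70 in the quiescent arrays. Myl1, a fast myosin light chain, had log2 signals of 10.50 and 11.65 in activated 1 and 2 and of 4.87 and 5.52 in activated 3 and 4. Myh1, an adult fast myosin heavy chain, had 10.13 and 11.46 against 5.52 and 5.33, and its other tested probe set was called in the same direction. Probes of Myh1 may also read its close paralogs, so the isoform is uncertain.

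Mybph, a myosin binding protein of the thick filament, had log2 signals of 9.69 and 9.16 in activated 1 and 2 against 4.09 and 4.48 in activated 3 and 4, and of 4.62 to 5.26 in the quiescent arrays. Myom2, an M-band protein, had 7.53 and 7.62 against 4.05 and 4.06, and 4.2 to 4.37 in the quiescent arrays. For both genes the two-cycle activated arrays were as low as the quiescent cells. Both genes passed the signal filter, a mean over the 8 arrays, only through activated 1 and 2. Activated 1 and 2 did not keep 1 order across genes: activated 2 was higher for Myl1 and Myh1, and activated 1 for Mybph and Myh3.

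Thin filament genes were called higher for 7 of 13 tested and lower for none, with a median of 2.54 (activated 1.52, quiescent -0.39). The cardiac and slow troponin C gene Tnnc1 had log2 signals of 11.61 and 11.73 in activated 1 and 2 against 7.89 and 8.09 in activated 3 and 4, and of 6.5, 5.39, 7.18 and 7.77 in the quiescent arrays. Tnni1, the slow troponin I, had 10.63 and 11.14 against 6.92 and 6.79. Tnnc2, the fast troponin C, had 11.06 and 11.46 against 7.03 and 6.82.

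The differences in differences of these 3 troponin genes were 5.20 ± 0.51, 5.33 ± 0.44 and 5.53 ± 0.72, and of the fast troponin T gene Tnnt3 2.54 ± 0.52. The cardiac alpha-actin gene Actc1, which fetal skeletal muscle expresses, had log2 signals of 12.17 and 11.56 against 8.38 and 8.45, and 3.34 ± 0.55. Tnnt2, the cardiac troponin T of embryonic muscle, did not pass the test (1.00 ± 0.34, adjusted p = 0.111). Its signals were 11.12 and 10.50 against 9.32 and 9.34, and both two-cycle arrays lay far above the quiescent range of 4.26 to 5.01.

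The embryonic and fetal list had 10 of 20 genes called higher and none lower, with a median of 1.38 (activated 1.76, quiescent 0.19). Mylpf, the fast regulatory light chain, had log2 signals of 11.85 and 11.53 in activated 1 and 2 against 8.34 and 8.49 in activated 3 and 4, and a difference in differences of 4.75 ± 0.54 (adjusted p = 0.00169). Igf2, a growth factor that differentiating myoblasts make, had 10.86 and 10.98 against 8.90 and 8.86, and 1.75 ± 0.31. The acetylcholine receptor gene Chrng had scaled signals of 1450 and 1012 against 476 and 485, an activated difference of 1.31 and a quiescent one of 1.28, so its difference in differences was 0.02 ± 0.32. Its quiescent signals of 19.6, 33.0, 1.8 and 2.1 were near or under the pseudocount, and its other probe set had 0.93 in the activated arrays, -0.26 in the quiescent ones and 1.19 after subtraction (adjusted p = 0.0603). Cdkn1c, a cell cycle inhibitor on the same list, likewise had 1.12 and 1.07. For these probe sets of both genes the kit difference was called in each group and in the same direction.

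The adult fibre list had 11 of 24 genes called higher and none lower, with a median of 2.15 (activated 1.57, quiescent -0.80). Mb, the oxygen-binding myoglobin of fibres, had log2 signals of 9.23 and 10.87 in activated 1 and 2, 4.76 and 4.85 in activated 3 and 4, 8.30 and 7.10 in quiescent 1 and 2, and 9.82 and 10.06 in quiescent 3 and 4. The 2 kits therefore lay in opposite order in the 2 groups. The activated difference was 5.25 (adjusted p = 0.000299), the quiescent one -2.24 (adjusted p = 0.0113) and the difference in differences 7.48 ± 0.71. Ckm, muscle creatine kinase, had 7.51 and 6.56 against 5.29 and 5.45 in the activated arrays, below the quiescent range of 8.92 to 10.21. Its difference in differences was 2.56 ± 0.51 (adjusted p = 0.0247).

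Pgam2, the muscle phosphoglycerate mutase, had 9.0 and 8.75 against 6.54 and 6.88. For the adult list 20 of 24 genes were above 0 in the activated difference and 4 of 24 in the quiescent difference, where 6 were called lower and none higher. Without quiescent 2, which had the lowest signals of Mb, Myl1 and Acta1 among the quiescent arrays, 1 of the 82 muscle structure genes was called lower in the quiescent difference instead of 14. The difference in differences then called 25 of the 82 higher instead of 37, and without quiescent 3, activated 3 or activated 4 it called 21, 20 and 22.

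**Figure D3:**
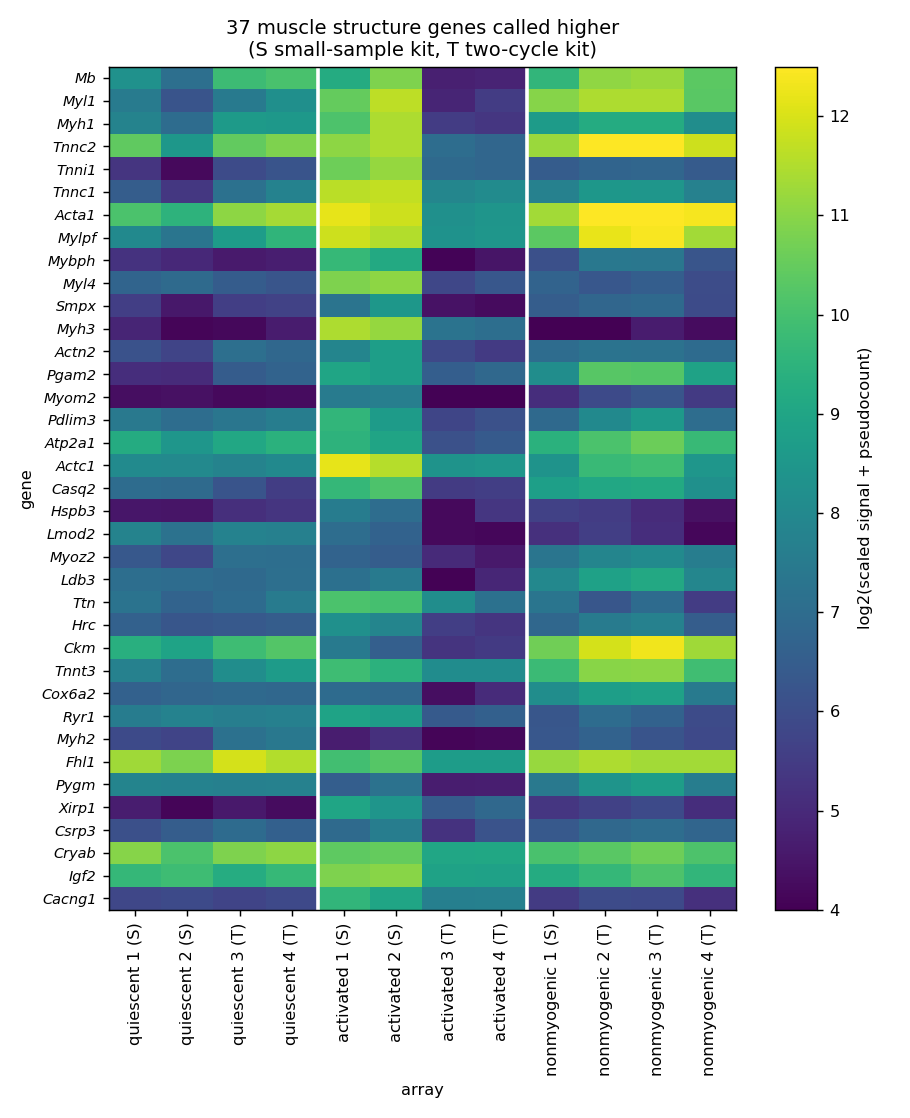
Log2 of the scaled signal plus pseudocount in the 12 arrays (columns, S small-sample and T two-cycle kit) of the 37 muscle structure genes called higher in the difference in differences (largest difference at the top). For all 37 genes both small-sample activated arrays exceed both two-cycle ones; Myh3 and Xirp1 are highest in activated 1 and 2 and low in the uncultured arrays, while Mb, Tnnc2, Acta1 and Ckm are also bright in quiescent and nonmyogenic arrays.

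Z-disc genes were called higher for 9 of 21 and lower for none, with a median of 1.59 (activated 1.40, quiescent -0.25). Actn2, the alpha-actinin that crosslinks thin filaments, had log2 signals of 7.88 and 8.75 against 5.84 and 5.44, and a difference in differences of 3.70 ± 0.40 (adjusted p = 0.00118). Hspb3, a small heat shock protein of muscle, had 7.58 and 7.03 against 4.2 and 5.35, and passed the signal filter only through activated 1 and 2. Myoz2, a calcineurin-binding Z-disc protein, had 6.71 and 6.52 against 5.0 and 4.59, and Fhl1, a LIM domain protein, 9.92 and 10.27 against 8.70 and 8.70. Desmin (Des), the intermediate filament that proliferating myoblasts already make, had 10.47 and 10.46 against 10.41 and 10.31, with an activated difference of 0.11 ± 0.45. Its other tested probe set had called kit differences of 0.76 in the activated and 0.99 in the quiescent arrays, and neither was called in the difference in differences.

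Genes of calcium release and membrane coupling were called higher for 5 of 16 and lower for none (median 0.69, activated 1.03, quiescent 0.08). Casq2, a calcium buffer of the sarcoplasmic reticulum, had log2 signals of 9.67 and 10.13 in activated 1 and 2 against 5.48 and 5.57 in activated 3 and 4. Atp2a1, the fast-fibre calcium pump, had 9.51 and 8.98 against 6.10 and 6.42, which put the two-cycle arrays below the quiescent range of 8.46 to 9.42. Ryr1, the calcium release channel, had 8.92 and 8.72 against 6.41 and 6.59, and Hrc, a calcium-binding protein of the reticulum, 8.27 and 7.86 against 5.57 and 5.32. Their differences in differences were 3.27 ± 0.45, 3.39 ± 0.46, 2.32 ± 0.40 and 2.58 ± 0.48.

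The dystrophin complex ties the fibre's cytoskeleton to the basal lamina, and 5 of its 10 tested genes were called higher and none lower (median 1.12, activated 0.63, quiescent -0.41). Laminin alpha-2 (Lama2) had log2 signals of 8.07 and 8.01 against 7.02 and 6.78, and utrophin (Utrn) 9.48 and 9.50 against 8.57 and 8.40. Sgcb, a sarcoglycan, had 8.70 and 8.54 against 7.76 and 7.37. Its other tested probe set had an activated difference of 0.12 and a called quiescent one of -0.70. That probe set was not called in the difference in differences (0.82, adjusted p = 0.149). Dystroglycan (Dag1), by its brightest probe set, had 10.50 and 9.47 against 9.25 and 9.12. The call of that probe set in the difference in differences (1.65 ± 0.39, adjusted p = 0.0419) drew partly on a quiescent difference of -0.84. Its other 3 probe sets had called activated differences of 1.17, 1.36 and 1.46, and quiescent ones of 0.12, -0.34 and -0.10 that were not called. Of these 3 only the last was called in the difference in differences (1.56, adjusted p = 0.046). Of 19 genes of muscle metabolism 7 were called higher and none lower (median 0.85). Among them the fatty acid binding protein Fabp3 had 6.70 and 7.48 against 5.83 and 5.95.

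Myogenic regulators were called higher for 5 of 13 and lower for none, with a median of 0.57. Mef2c, a partner of the MyoD family on muscle promoters, had log2 signals of 8.59 and 9.17 in activated 1 and 2 against 5.46 and 5.17 in activated 3 and 4, and of 6.95 to 7.97 in the quiescent arrays. The two-cycle activated arrays were thus below the uncultured cells and the small-sample ones above. Its difference in differences was 4.28 ± 0.42 (adjusted p = 0.000659). Myod1, the determination factor of activated satellite cells, had 11.91 and 11.70 against 12.44 and 12.51, slightly lower with the small-sample kit (-0.67 ± 0.22, adjusted p = 0.054), and -0.15 ± 0.32 after subtraction.

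Myf5 (1.97 ± 0.45) was called through the quiescent arrays. Mef2a (1.5 ± 0.36) was called by its brightest probe set alone: its other 3 were not called in the difference in differences (0.27 to 0.82) and were higher with the small-sample kit in both groups. The activated signals of Myf5, a determination factor of satellite cells, were 9.0 and 9.38 against 8.86 and 8.68, and its quiescent difference was -1.55. Of the 19 tested genes of the undifferentiated state 2 were called, both higher, beside 4.01% higher over all genes. They were the Notch ligand Dll1 (1.42 ± 0.32) and the FGF inhibitor Spry1 (1.32 ± 0.30). Spry1 was called through the quiescent arrays, with an activated difference of 0.32 and a quiescent one of -1.0. Dll1 had 0.77 and -0.65. Their calls were kept under 12 (Spry1) and 10 (Dll1) of 27 alternatives. Pax7, the satellite cell factor, had 6.95 and 7.13 against 6.32 and 6.26 in the activated arrays, and -0.23 ± 0.37 after subtraction. Id1 (-1.68 ± 0.56, adjusted p = 0.106), an inhibitor of MyoD's partners, and Id3 (-0.17 ± 0.45) did not pass the test.

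Of 19 tested genes of myoblast fusion 2 were called higher and none lower, beside 4.01% higher over all genes. One was Mymk, the membrane protein that drives fusion, with log2 signals of 10.61 and 9.96 in activated 1 and 2, 7.53 and 7.73 in activated 3 and 4, and 5.86 to 6.59 in the quiescent arrays. All activated arrays exceeded the uncultured ones, the small-sample arrays by more, and the difference in differences was 2.21 ± 0.41 (adjusted p = 0.02). The other was Myl1, which was put on that list too. The adhesion receptor integrin beta-1 (Itgb1) was not called and had 9.62 and 9.84 against 9.46 and 9.10. Of 12 genes of the neuromuscular junction 1 was called, utrophin. The acetylcholine receptor subunit Chrna1, which myoblasts make early, had 12.31 and 12.09 against 12.73 and 12.68 (-0.97 ± 0.29, adjusted p = 0.0772).

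Cell cycle genes stayed high in the arrays of both kits. For mitosis none of 28 tested genes was called in either direction in the difference in differences (limma, median -0.21), with 1 higher and 4 lower in the activated difference. Cdk1, the mitotic kinase, had log2 signals of 11.03 and 10.81 in activated 1 and 2, 11.43 and 11.24 in activated 3 and 4, and 6.69 to 7.32 in the quiescent arrays. Mki67, a proliferation antigen, had 10.45 and 10.25 against 10.58 and 10.87. Ccna2, cyclin A, had 10.77 and 10.27 against 10.80 and 10.77. The kit differences in these genes were small beside the step from quiescent to activated cells.

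For DNA replication 2 of 28 genes were called lower and none higher, beside 1.2% lower and 4.01% higher over all genes. The list had a median of -0.53 in the difference in differences and -0.45 in the activated arrays. Mcm6, a subunit of the replicative helicase, had log2 signals of 9.81 and 10.04 in activated 1 and 2 against 11.36 and 11.33 in activated 3 and 4 (-1.38 ± 0.35, adjusted p = 0.0497). Its other probe set lay at -0.17, and the call was kept under 8 of 27 alternatives. The flap nuclease gene Fen1 had 10.35 and 10.51 against 11.89 and 11.41 (-1.61 ± 0.46, adjusted p = 0.0724), with another probe set at -0.02, and the polymerase gene Pold1 8.33 and 8.33 against 9.63 and 9.58 (-1.15 ± 0.35, adjusted p = 0.0821). The other call, the initiation factor Mcm10, rested on the quiescent arrays, with 8.95 and 8.81 against 9.20 and 9.19 in the activated ones. The list's median stayed below 0 under all 27 alternatives, from -0.92 to -0.04.

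Growth arrest genes were called higher for 3 of 21 and lower for none (median 0.69, activated 0.67, quiescent 0.04). Over all genes 4.01% were called higher and 1.2% lower, so a count of 3 is small evidence. The retinoblastoma gene Rb1, which holds cells out of the cycle, had log2 signals of 8.95 and 8.64 against 7.19 and 7.10, and 8.00 to 8.6 in the quiescent arrays (1.79 ± 0.33, adjusted p = 0.0198). Trp53inp1, a p53-induced gene, had 8.75 and 8.99 against 7.47 and 7.41 (2.14 ± 0.37), and Btg2, an antiproliferative gene, 7.15 and 7.18 against 5.63 and 5.59 (2.35 ± 0.50). The other tested probe set of Btg2 was not called (1.28, adjusted p = 0.176). The Btg2 call was kept under 14 of 27 alternatives. The inhibitor Cdkn1a, which myogenic cells use to leave the cycle, had 11.99 and 11.59 against 11.05 and 11.15, but a quiescent difference of nearly the same size (0.65) left 0.04 ± 0.44.

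**Figure D4:**
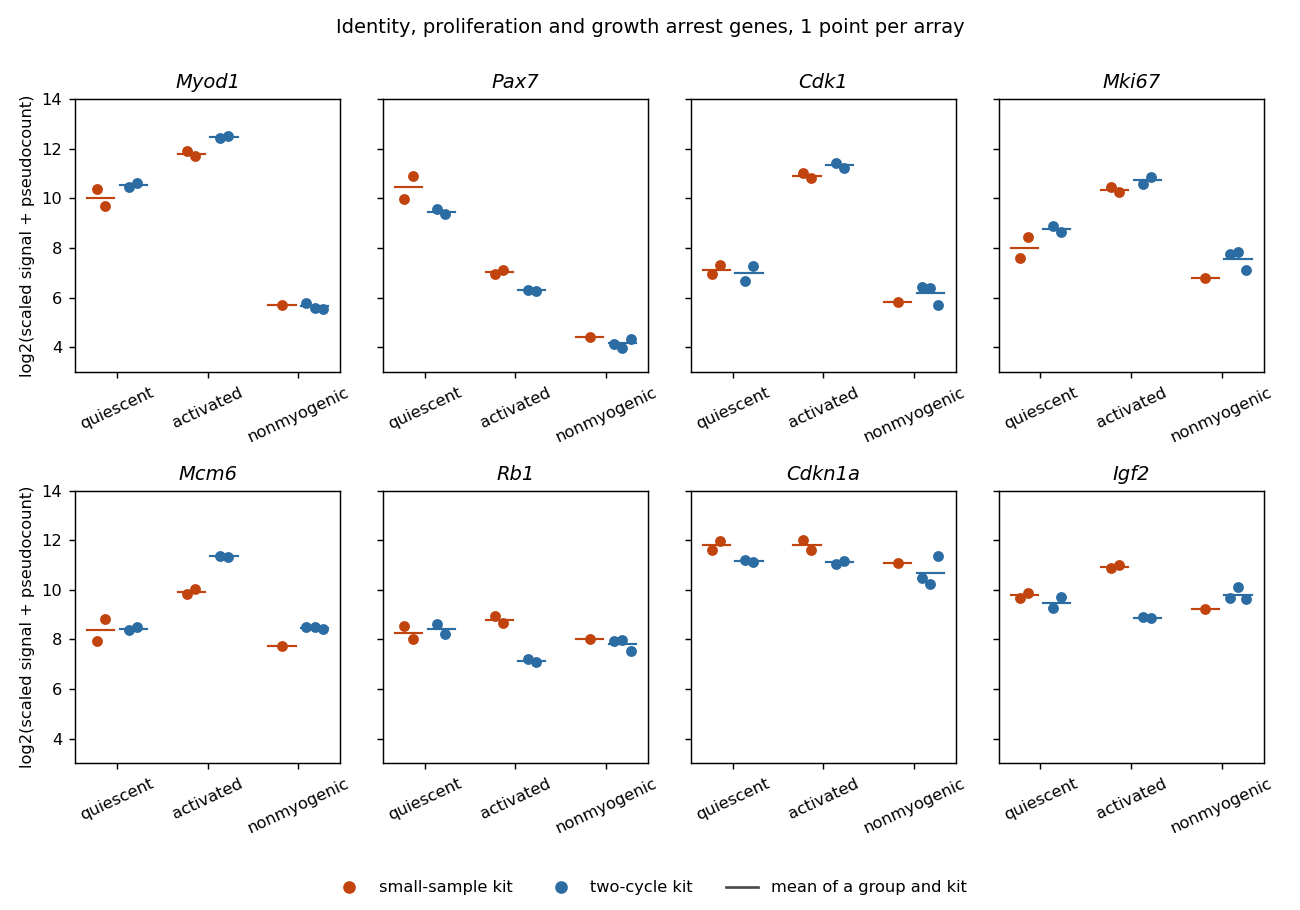
Log2 of the scaled signal plus pseudocount of 8 identity, proliferation and growth arrest genes by group, 1 point per array, coloured by labelling kit, with a bar at the mean of each group and kit. Cdk1 and Mki67 are high in all 4 activated arrays, Mcm6 is lower and Rb1 and Igf2 are higher in the small-sample activated arrays, and Cdkn1a shows the same kit step in quiescent and activated arrays.

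Immediate early genes split in direction, with 4 of 25 called higher and 2 lower and a median of 1.13. Over all genes 4.01% were called higher and 1.2% lower. Egr1 had log2 signals of 10.78 and 10.02 in activated 1 and 2 against 9.47 and 9.55 in activated 3 and 4, and the reverse order in the quiescent arrays (13.20 and 12.83 against 14.30 and 14.17). Ccn1, a matricellular protein, and Fosl1, an AP-1 factor, were called in opposite directions (2.24 ± 0.41 and -2.35 ± 0.30) with activated differences of only 0.36 and 0.36, so both calls came from the quiescent arrays. Klf4 had 8.12 and 8.10 against 6.48 and 6.48 in the activated arrays and a quiescent kit difference of 0.16. Its other probe set had a called quiescent difference of 1.02 and was not called in the difference in differences (0.80, adjusted p = 0.198). Fos did not pass the test (2.53 ± 0.99, adjusted p = 0.153), with 10.49 in activated 1 and 7.34 to 7.68 in the other 3 activated arrays.

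Among 19 heat shock genes 2 were called higher and 2 lower, beside 4.01% and 1.2% of all genes. The paired genes of inducible Hsp70 were the higher ones. Hspa1a had log2 signals of 6.95 and 6.38 against 5.21 and 5.72 in the activated arrays but 12.09 and 11.50 against 13.19 and 13.10 in the quiescent arrays, and Hspa1b followed the same pattern (2.54 ± 0.28). Their sequences are nearly identical, so their probe sets may not tell them apart. The co-chaperone Bag3 (-1.41 ± 0.32) and the mitochondrial chaperonin Hspd1 (-1.11 ± 0.27) were lower, and for neither was the activated difference itself called. By the brightest probe set of each gene, limma's difference in differences called none of 4 further lists. They were the integrated stress response (20 tested), cholesterol synthesis (17), oxidative phosphorylation (32) and the proteasome (27). Over all 7676 genes 4.01% were called higher and 1.2% lower, so lists of this size would hold few calls in any case. Of the 7676, 1877 had an unadjusted p under 0.05. A dimmer probe set of Cox5b, a subunit of cytochrome c oxidase, was called (-1.08, adjusted p = 0.0324), and its other 3 dimmer ones were not.

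Collagen and matrix genes were called higher for 4 of 27 and lower for none, beside 4.01% and 1.2% of all genes. Their median was 1.11 (activated 0.67, quiescent -0.29). Lox, the enzyme that crosslinks collagen, had log2 signals of 7.31 and 8.40 in activated 1 and 2 against 5.91 and 6.15 in activated 3 and 4, and an even level of 7.82 to 8.24 in the quiescent arrays (1.78 ± 0.43, adjusted p = 0.0438). The other calls rested on the quiescent arrays. Col3a1, a fibrillar collagen, had 10.14 and 10.35 against 10.28 and 10.14 in the activated arrays, an activated difference of 0.03, and Lum and Bgn, small proteoglycans, had 0.59 and 0.28.

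Markers of other cells that a sort could carry were summed over the tested genes of each of 6 lists. Each sum was lower in the activated arrays of both kits than in the uncultured arrays. Summed scaled signals of the endothelial list were 403 and 316 in activated 1 and 2 and 319 and 309 in activated 3 and 4, against 5195 to 7775 in the quiescent and 21291 to 24304 in the nonmyogenic arrays. Summed leukocyte markers were 213 to 257 in the activated arrays. Fibroblast markers summed to 4612 and 4288 in activated 1 and 2, and to 6017 and 6099 in activated 3 and 4. All 7 fibroblast defining markers on the array were under 3 times the pseudocount in all 4 activated arrays. So were 6 of 6 leukocyte, 5 of 6 endothelial, 3 of 5 smooth muscle and pericyte, and 1 of 3 Schwann and tendon markers. Pdgfra was at 4.3, 2.6, 6.0 and 2.0. The tendon gene Scx had 64.5 and 98.7 against 38.8 and 25.5, and 21.6 to 33.6 in the quiescent arrays. Pmp22, on the Schwann cell and tendon list, was called higher in the activated arrays (1.18) and in the difference in differences (1.27). The part of Scx and Pmp22 was not tested. Among smooth muscle and pericyte genes, which early muscle cells partly share, Acta2 had 4553 and 3233 against 2008 and 2057, Tagln 530 and 104 against 122 and 103, and Myh11 at most 15.2. None of the 10 smooth muscle genes was called in limma's difference in differences, and their part in the result was not tested.

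In the quiescent arrays such markers did differ between kits. Fibroblast markers summed to 16664 and 12445 in quiescent 1 and 2 and to 26694 and 24729 in quiescent 3 and 4, and gelsolin (Gsn), which fibroblasts express strongly, was called there at -2.14 while the activated difference was 0.25. Of its 4 other probe sets 3 had called activated differences, of 0.94, 1.10 and 1.21. In the difference in differences 3 of 14 fibroblast genes were called higher and none lower. One was Dpep1, a membrane dipeptidase, with scaled signals of 253.9 and 108.2 in activated 1 and 2, 18.5 and 17.9 in activated 3 and 4, and 43.7 to 371.5 in the quiescent arrays (3.76 ± 0.82, adjusted p = 0.0322); its other probe set was not called (1.10), and its part in the result was not tested. Leukocyte markers summed to 3440 in quiescent 1 and to 673, 386 and 348 in the other quiescent arrays. S100a8, a neutrophil protein, was at a log2 signal of 10.27 in quiescent 1 against 7.03, 5.33 and 5.32. Of 7 leukocyte markers tested 1 was called lower in the difference in differences, Laptm5 (-1.39 ± 0.33). In 269 of the 308 genes called higher in the difference in differences the quiescent kit difference was below 0. In 160 of the 308 it was called lower, beside 854 of all 7676 genes (11.1%). Subtraction of the quiescent difference favours such genes by construction, so these counts say nothing about other cells. The part of the markers of other cells in the result was not tested. With the nonmyogenic kit difference (1 array against 3) taken off instead of the quiescent one, 65 probe sets were called, and 25 of the 82 muscle structure genes were higher and 1 lower.

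A shared kit difference was seen in 504 genes, called in both groups in the same direction, 313 higher and 191 lower with the small-sample kit; 55 genes were called in opposite directions. The ribosomal proteins were the clearest shared group. Of 20 tested, 15 were lower with the small-sample kit in the activated and 12 in the quiescent arrays, none was higher in either, the medians were -0.83 and -0.67, and none was called in limma's difference in differences. Rps29, a protein of the small ribosomal subunit, had log2 signals of 12.24 and 12.14 against 13.29 and 13.27 in the activated arrays and 12.70 and 12.84 against 13.54 and 13.43 in the quiescent ones. The elongation factor Eef1a1 and cytoplasmic gamma-actin Actg1 had kit differences of -1.42 and -1.32 in the activated arrays and of -1.21 and -1.20 in the quiescent ones. Genes higher in both groups included Slc25a30, a mitochondrial carrier (2.45 and 2.30), and Foxp1, a forkhead factor (1.66 and 1.78).

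**Figure D5:**
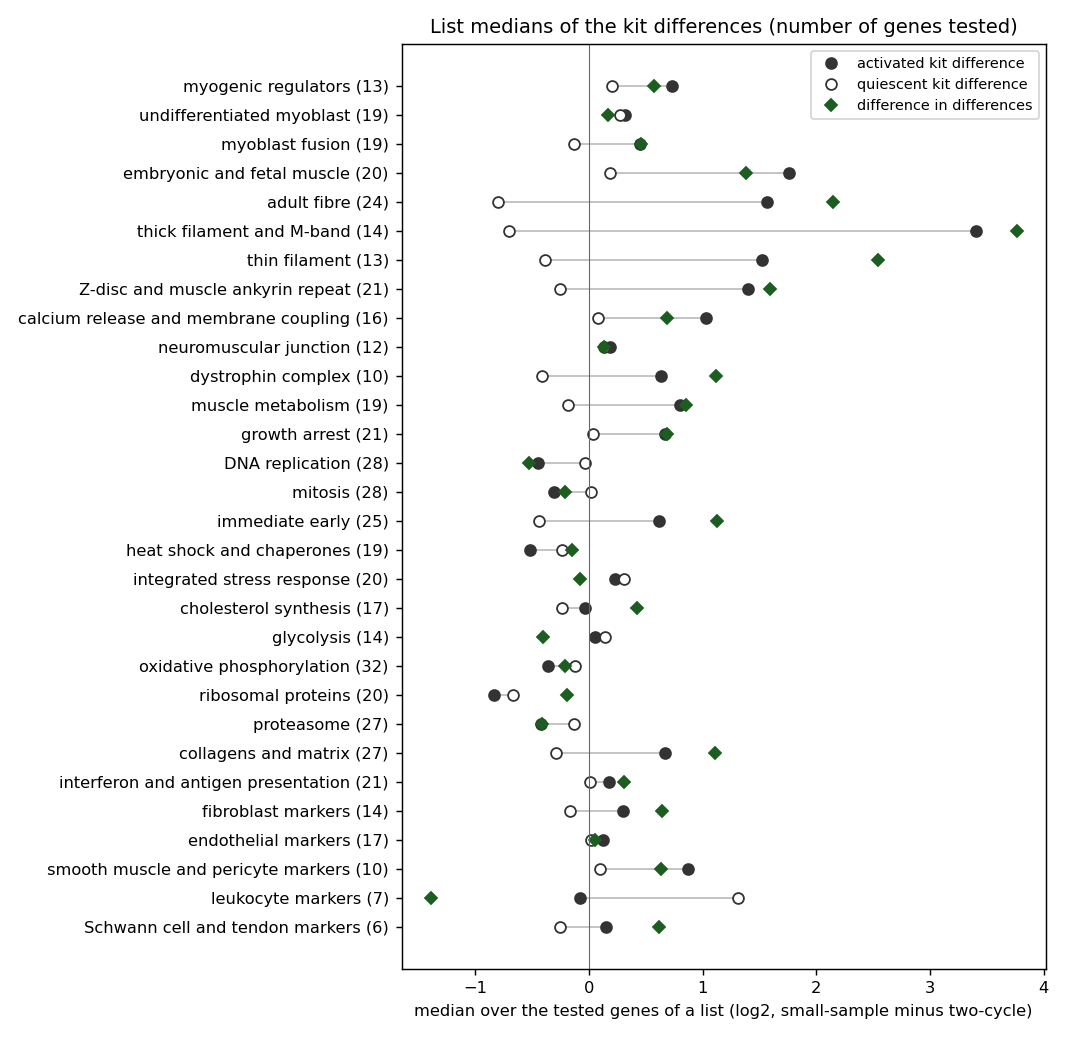
Median kit difference (log2, small-sample minus two-cycle) over the tested genes of 30 lists in the activated arrays (filled circles) and the quiescent arrays (open circles), with the median difference in differences (diamonds) and the number of genes tested in brackets. The sarcomere lists have activated medians of 1.40 to 3.40 and the ribosomal proteins lie near -0.83 and -0.67 in both groups.

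Genes lower in the small-sample activated arrays were fewer, 51 called there and in the difference in differences against 186 higher. Secretin (Sct), a peptide hormone, had log2 signals of 8.88 and 9.86 in activated 1 and 2, 11.13 and 11.32 in activated 3 and 4, and 4.55 to 4.83 in the quiescent arrays. It was thus raised in every activated array and more so in the two-cycle ones (-1.99 ± 0.40, adjusted p = 0.0255). Galanin (Gal), a neuropeptide, had 9.34 and 9.17 against 10.59 and 10.72 in the activated arrays and the reverse order in the quiescent arrays (9.45 and 9.71 against 7.76 and 8.31), which gave -2.94 ± 0.46. Donson, a replication fork protein, had 6.6 and 6.90 against 8.50 and 8.92 and no quiescent difference (-0.01), with -1.95 ± 0.39.

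Lamin A/C (Lmna) had log2 signals of 11.69 and 11.50 against 12.46 and 12.40 (-1.95 ± 0.26), but its other 2 tested probe sets were not called and lay at -0.41 and 0.31. The remaining genes named by the rule on the lower side were Adgrg3, an adhesion receptor (-2.77), Syt12, a synaptotagmin (-2.49), Crtc2, a CREB coactivator (-1.92), Sp7, a bone cell factor (-1.89), Nubp1 (-1.84), Stk10, a kinase (-1.77), Trappc5, a vesicle transport factor (-1.71), and Zc3h15 (-1.70). The other probe sets of Trappc5 (0.24), Zc3h15 (-1.10) and Nubp1 (-0.81 and -0.65) were not called. On the higher side only Dclk1, a kinase that binds microtubules, and Mef2c among the 12 named genes were not contractile or oxygen-binding proteins. Both tested probe sets of Dclk1 were called (4.51 and 4.62), with log2 signals of 9.26 and 9.16 in activated 1 and 2, 5.27 and 5.19 in activated 3 and 4, and 4.92 to 5.96 in the quiescent arrays. The probe set with these signals passed the signal filter only through activated 1 and 2.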

How the data were processed

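RNA of sorted cells (12 arrays of 3 groups) was hybridised to Affymetrix Mouse 430A arrays. The authors deposited MAS5 signals, an intensity per probe set on a linear scale, as the submitters' processing notes name MAS5, with settings not stated there. Each array was scaled to a 2% trimmed mean of 235.14, the median of the 12 arrays, and log2(signal + 14.70) was taken. Probe sets with a mean scaled signal of at least 47.03 over the 8 quiescent and activated arrays were tested, 12728 of 22690 on the array (64 controls left out). Of these 22690, 20380 had 1 gene in the platform annotation, 691 several and 1555 none. A gene was read from its brightest tested probe set, and fold changes on this scale understate changes of low genes. No probe-level detection call was used here, and the small number of arrays limits the precision.

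limma 3.58.1 in R 4.3.3 fitted 1 mean per group and kit to all 12 arrays (6 residual degrees of freedom), with Benjamini-Hochberg adjusted p-values. On simulated data the difference in differences called 15% of probe sets changed 2-fold and 91% of those changed 4-fold. Of the unchanged probe sets among 12728, 7 were called. The simulation gave all groups 1 shared kit difference and independent noise. It held no differences between sorts or cultures, so it does not measure calls that these would bring. Figures were drawn with matplotlib 3.10.9.

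The gene lists and the genes compared were chosen with earlier results of these data known. Genes were named by rule: 30 reference genes (28 tested), 12 genes a direction with the largest difference in differences that was also called in the activated arrays, 6 genes a direction with the largest kit difference shared by both groups, and up to 4 members of each list with the smallest adjusted p, plus any member called against its list. Genes outside the rule were Xirp1, Smpx, Pdgfra, Tagln, Myh11, Scx and those under other observations, chosen after their values were seen. The replicate numbers were not taken to pair arrays: same-numbered arrays of both groups had deviations that correlated at 0.184 to 0.331, and those of different numbers within a kit at 0.237 to 0.384. Alternatives were the scaling, pseudocount, filter, probe set choice, arrays fitted, array weights, variance model, replicate block, the kit difference taken off and leaving out each array.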

Additional observations from a re-analysis of the deposited data

Results flagged for a closer look

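Within groups of 4 arrays, 6 of 308 gene-by-group cases had 1 array far from the other 3 by Dixon's criterion. Chance meets it in about 1 in 20 groups of like arrays. Each group here mixed 2 kits, so that rate does not strictly apply. Fos stood at a log2 signal of 10.49 in activated 1 against 7.34 to 7.68 in the others. Ccna2 was at 10.27 in activated 2 against 10.77 to 10.80, and Fmod, a small proteoglycan, at 4.47 in activated 1 against 3.95 to 4.03. Fen1 was at 9.22 in quiescent 2 against 8.37 to 8.48, and Sct at 4.83 in quiescent 2 against 4.55 to 4.58. The proteasome subunit Psmd4 was at 9.78 in quiescent 3 against 10.25 to 10.27. The flagged values of Fmod and Sct were close to no signal.

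The kit difference itself differed between activated and quiescent cells, by limma's test of the difference in differences, at 565 probe sets. Among the 154 genes named by the rule 21 had called kit differences of opposite sign in the 2 groups, beside 55 of all 7676 genes (0.717%). Many of the 154 were picked by their difference in differences, which favours such genes by construction, so the count of 21 is a description. Contractile and muscle genes higher in the activated and lower in the quiescent small-sample arrays had differences in differences of 7.48 (Mb), 5.33 (Tnni1), 5.20 (Tnnc1), 5.09 (Acta1), 4.75 (Mylpf), 3.70 (Actn2), 3.67 (Pgam2), 2.83 (Myoz2), 2.37 (Fabp3), 2.09 (Fhl1) and 1.60 (Utrn). The stress genes Hspa1a, Hspa1b and Egr1 had 2.55, 2.54 and 2.10. The reverse order was seen for Gal (-2.94), Adgrg3 (-2.77), Syt12 (-2.49), Lmna (-1.95), Nubp1 (-1.84), Stk10 (-1.77) and Zc3h15 (-1.70).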

How the results depend on the processing

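Of the 76 named genes called in the difference in differences, 75 kept their direction under all 27 alternatives and 14 kept their call; the exception, Mbp, a myelin protein, went to 0.12 with the nonmyogenic kit difference taken off. The count of 565 probe sets became 308 with quantile normalization, 202 with no filter, 208 with only the 8 arrays fitted, 307 with array weights, 65 with the nonmyogenic kit difference taken off and 231 with the mean of quiescent and nonmyogenic differences taken off. Averaging probe sets per gene gave 373 genes of 7376. With the replicate block, which shares only a number between arrays, it was 28. Leaving out 1 array gave 76 to 1075: 1075, 256 and 76 without quiescent 1, 2 and 3, 221, 279, 98 and 86 without activated 1 to 4, and 321 and 373 without nonmyogenic 2 and 3. Activated calls (2721) became 11314 unscaled, 1218 with quantile normalization and 1443 by averaged gene, and ran from 894 to 3212 with 1 array left out. Quiescent calls (2979) became 8919 unscaled, 1489 by averaged gene and 1302 with array weights, and ran from 1047 to 3194. Unscaled values moved the median of all probe sets to 1.30 in the activated and 0.32 in the difference in differences. The block could not be fitted to either group alone, where each number belongs to 1 kit. The causes of these shifts were not tested. Where an array was left out, the lone array of its kit was assumed to vary like the other groups.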

Other observations

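Among genes on none of the lists, 128 were called higher and 38 lower both in the activated arrays and in the difference in differences, with the activated arrays of the 2 kits apart. The following were picked after their values were seen. Igfbp5, an insulin-like growth factor binding protein, had log2 signals of 10.33 and 10.25 in activated 1 and 2 against 7.31 and 7.46 in activated 3 and 4, and a difference in differences of 3.18. C1qtnf3, a secreted protein, had 9.10 and 8.16 against 5.90 and 5.67 (3.44), and Ogn, a small proteoglycan, 7.36 and 7.03 against 5.01 and 4.84 (2.69). Itgb1bp2, the muscle integrin-binding protein melusin, had 8.11 and 7.54 against 4.91 and 5.05 (2.93). It passed the signal filter only through activated 1 and 2. In all 4 genes both small-sample arrays were higher. Also higher were the stress-induced Ddit4 (3.20) and Bnip3 (2.46) and the muscle membrane protein gene Popdc2 (2.39). Their activated differences were 1.65, 1.68 and 1.62 and their quiescent ones -1.55, -0.78 and -0.78, so these values drew partly on the quiescent arrays.

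On the lower side, Nasp, a histone chaperone, had log2 signals of 9.99 and 9.53 in activated 1 and 2 against 11.00 and 11.02 in activated 3 and 4, and a difference in differences of -1.47. Chaf1b, a subunit of chromatin assembly factor 1, had -1.46, and Rcc2, a regulator of mitotic chromosomes, -1.47. The mitochondrial carrier Slc25a10 had -1.67. For Chaf1b, Rcc2 and Slc25a10 the activated differences were -0.91, -0.74 and -0.89 and the quiescent ones 0.56, 0.73 and 0.78.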
